A study of Homo sapiens with 6 samples.

Results

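Granzymes, perforin and the proteins stored with them in cytotoxic granules were followed as 10 genes, GZMA, GZMB, GZMH, GZMK, GZMM, PRF1, GNLY, NKG7, SRGN and CTSW, out of 19740 genes that could be named on the arrays. These genes were chosen by name with this very comparison known, since GZMK and GZMA had appeared with IL-17A, and their values are therefore a description and carry no test. SU-DHL-2, an established human diffuse large B-cell lymphoma (DLBCL) cell line, was cultured for 72 h with IL-17A at 200 pg/ml (3 samples) or for 72 h without IL-17A (3 control samples). All 6 samples came from this single line, grown in RPMI medium with serum and antibiotics, and no T cells, NK cells or stromal cells were described in these cultures. From the total RNA of each sample, Cy3-labeled cRNA was made and read on its own 1-colour expression array. The labels do not say whether the 3 samples of a group were independently grown, so p-values measure only the spread between these samples, which may be technical.

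Cytotoxic T cells and NK cells kill by releasing granules into the contact with a target cell. Perforin opens the target membrane, the granzymes are serine proteases that enter through it and cleave substrates leading to cell death, granulysin disrupts membranes, and serglycin is the proteoglycan on which these proteins are packed. Granzymes are made as inactive precursors that lose a short propeptide before storage, and the cells that carry them are protected by inhibitors such as serpins. Diffuse large B-cell lymphoma is a tumour of B cells, which are not the usual source of these proteins, although activated B cells can express some granzymes.

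The stretch of 250 bases upstream of the annotated gene start was available from RefSeq for 6 of the 10 genes (GNLY, GZMA, GZMB, GZMH, NKG7 and PRF1, build GRCh38.p14). It was searched on both strands for 5 short motifs. TGTGGT, the core recognised by RUNX factors, was present upstream of GNLY, GZMA, GZMB and PRF1, that is 4 of 6, against 11.0% of 35116 promoters of the same length. AGGTGT, a short site of T-box factors such as T-bet and EOMES, was in 0 of 6, against 9.57% of all promoters. TGANTCA, the AP-1 motif, was found upstream of GZMB alone, against 6.57% of all promoters. TTCNNNGAA, bound by STAT factors, was in 0 of 6, also against 6.57%. AGGAAGT, an ETS core, was found upstream of PRF1 alone, against 7.01%. A match describes the letters of this window and is not evidence of a bound site.

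The GZMA, PRF1 and GZMB promoters, all with the RUNX core, are printed 5′ to 3′ on the strand of the gene, because GZMA and PRF1 are discussed below for their signals and GZMB is the granzyme with the most spots on the array. Capitals mark every motif match, which on the opposite strand reads ACCACA for RUNX, and no match overlapped another. In GZMA the RUNX core lies 54 to 49 bases upstream of the start. In PRF1 it lies 62 to 57 bases upstream, with the ETS core at 42 to 36. In GZMB the AP-1 motif lies 214 to 208 bases upstream, followed by RUNX cores at 190 to 185 and at 93 to 88.
GZMA, chr5:55102396-55102645, plus strand: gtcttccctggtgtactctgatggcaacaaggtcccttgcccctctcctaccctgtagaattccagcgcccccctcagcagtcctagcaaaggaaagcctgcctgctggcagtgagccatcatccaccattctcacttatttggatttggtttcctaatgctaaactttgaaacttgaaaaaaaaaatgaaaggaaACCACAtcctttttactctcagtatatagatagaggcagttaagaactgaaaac
PRF1, chr10:70602742-70602991, minus strand: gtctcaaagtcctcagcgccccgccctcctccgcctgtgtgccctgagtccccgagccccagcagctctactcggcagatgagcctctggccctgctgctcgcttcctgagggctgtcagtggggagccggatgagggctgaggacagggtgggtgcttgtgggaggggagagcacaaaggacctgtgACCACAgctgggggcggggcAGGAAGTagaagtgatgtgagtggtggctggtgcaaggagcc
GZMB, chr14:24634191-24634440, minus strand: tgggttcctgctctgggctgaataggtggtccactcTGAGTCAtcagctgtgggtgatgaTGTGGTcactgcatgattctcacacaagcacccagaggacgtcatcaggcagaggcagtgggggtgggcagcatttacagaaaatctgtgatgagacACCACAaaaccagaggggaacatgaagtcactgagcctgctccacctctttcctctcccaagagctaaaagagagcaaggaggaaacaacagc

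Each gene was measured by 1 probe, printed as 10 spots for GZMB and as 1 spot for each of the others. Values are quantile-normalized signals on a linear scale unless log2 is stated, and levels of different probes cannot be set against each other. An array counted as detecting a probe when at least 50% of its spots were positive, significant and well above background by the flags of the scanner software. A probe detected on at least 3 of the 6 arrays was tested, which held for 23945 of 34127 probes and for 8 of the 10 granule genes; GZMB and CTSW were not tested. GZMA and GZMK reached this minimum only through the IL-17A arrays and so had to differ between the groups. The smallest p that an exact permutation test could reach for 1 gene, with 3 arrays in each group, is 0.1.

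Across the 10 genes, 2 stood apart with IL-17A, GZMK and GZMA, both granzymes that cut after basic residues. PRF1, which encodes perforin, was higher by less than 1.5-fold on all IL-17A arrays. GZMH, GZMM, GNLY, NKG7 and SRGN were detected on all 6 arrays with overlapping groups, and GZMB and CTSW lay at or near the background. GZMA and GZMK reached 1.5-fold with an unadjusted limma p under 0.05, as did 1.02% of all tested probes in the higher direction; 0 of 8 passed in the lower direction, against 1.14% of probes. Every IL-17A array lay above every control array for GZMA, GZMK and PRF1, 3 of 8 tested genes, against 20.5% of tested probes. Detection on 3 IL-17A and 0 control arrays was seen for GZMA and GZMK, against 0.12% of all probes, and the opposite pattern for 0 of 10, against 0.205%. Since the genes were selected on this comparison, nothing is read from these counts.

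**Figure D1:**
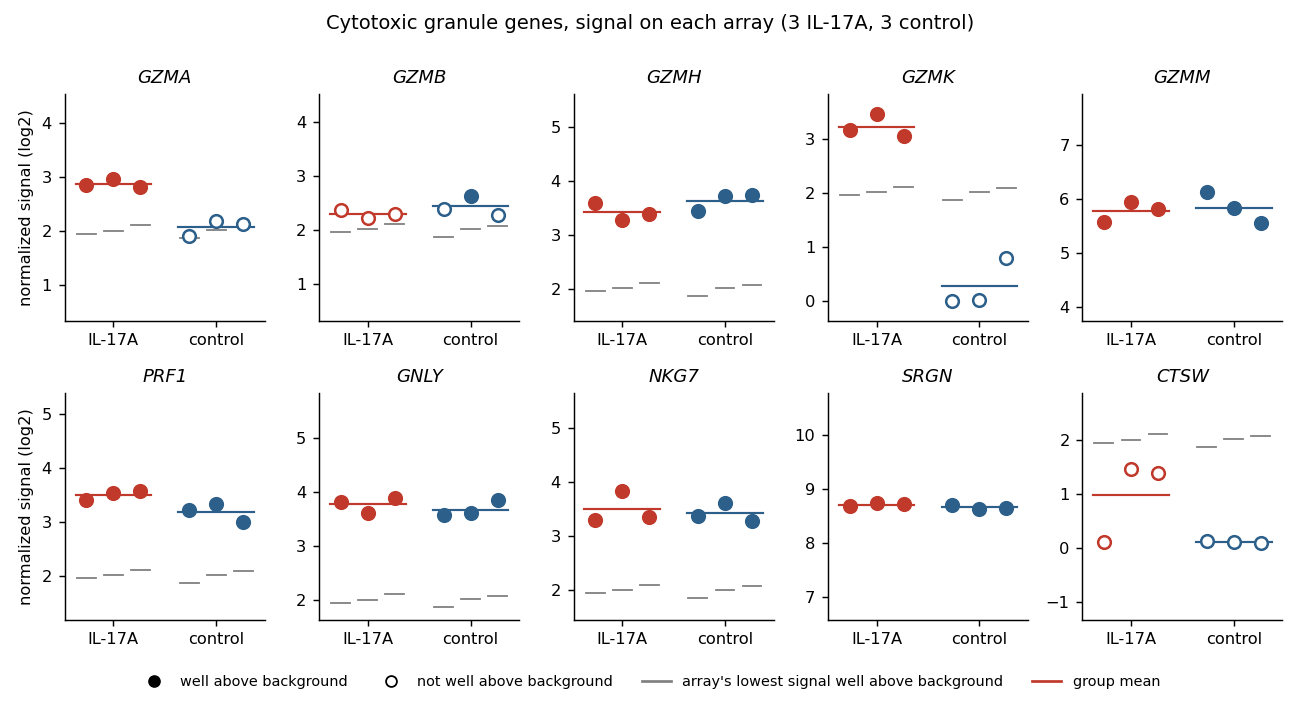
Normalized signal (log2) of the 10 granule genes on each of 3 IL-17A arrays (red) and 3 control arrays (blue). Each panel has its own axis of equal span, filled points are well above background, hollow points are not, short grey lines give the lowest signal of a well-above-background probe on that array and coloured lines the group means; GZMK and GZMA are filled on the 3 IL-17A arrays and hollow on the 3 control arrays.

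GZMK encodes granzyme K, a protease found mainly in memory CD8+ T cells and in subsets of NK cells. Its signal on IL-17A arrays 1, 2 and 3 was 8.97, 11.01 and 8.26, and on control arrays 1, 2 and 3 it was 1.00, 1.01 and 1.72. All 3 IL-17A signals were well above background and no control signal was, so that the groups were far from overlapping and the control level has only an upper limit. The means were 3.22 ± 0.21 (log2, SD, n = 3) with IL-17A and 0.26 ± 0.45 (n = 3) in controls. Against the lowest signal that counted as well above background on each control array (3.65, 4.05 and 4.22), GZMK with IL-17A was 2.36-fold higher. This ratio belongs to this normalization and is not a strict minimum. The GZMA control signals (3.78, 4.56 and 4.37) lay above these limits without counting as well above background. The log2 difference of GZMK was 1.24 against these limits, 1.01 in the authors' table and 0.15 with normexp background correction.

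The GZMK spot was dim in every sample. The median pixel of the spot read 27, 28 and 25 with IL-17A and 16.5, 18 and 21.5 in controls, over a local background of 13 to 14 on all 6 arrays. The scanner software still called the control spot positive and significant on control arrays 2 and 3. For probes printed 10 times, the spots of 1 array had a median SD of 0.25 (log2) at a mean log2 signal between 3 and 4, where GZMK lay with IL-17A. It was 0.673 between 1 and 2 and 0.376 below 1. Signals under 1 were set to 1, which can narrow the spread below 1.

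GZMA encodes granzyme A, the most abundant granzyme of many cytotoxic cells and, in the genome, the direct neighbour of GZMK. Its signal was 7.26, 7.84 and 7.04 with IL-17A and 3.78, 4.56 and 4.37 in controls. The 3 IL-17A arrays were all well above background, the 3 control arrays were not, and the lowest IL-17A value exceeded the highest control value. In this normalization the ratio of IL-17A to control was 1.75-fold, with means of 2.88 ± 0.08 and 2.08 ± 0.14 (log2, SD, n = 3 each) and a difference of 0.80 (log2, SE 0.09). The control signals lay just above the lowest signal well above background of their arrays, so raising dim signals to that limit leaves this ratio unchanged. It is therefore the fitted ratio and not a minimum. The log2 difference was smaller, 0.67, both in the authors' table and with each array scaled to its 75th percentile. The median pixel of this spot read 24 to 24.5 with IL-17A and 20 to 22 in controls, over local backgrounds of 12 to 14. The spots of repeated probes at a mean log2 signal between 2 and 3 had a median SD of 0.438 (log2) within an array.

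The 6 arrays came from 2 scans, as their headers give them. The first scan held the 3 controls and IL-17A sample 1, and the second held IL-17A samples 2 and 3. Within the first scan, GZMK read 8.97 in the IL-17A sample against 1.00 to 1.72 in the controls. GZMA read 7.26 against 3.78 to 4.56 there. A fit with scan as a block compares this 1 IL-17A sample with the controls, without a second IL-17A sample. It gave a log2 difference of 0.78 for GZMA and 0.23 for PRF1; for GZMK no such value is given, because its control level has only an upper limit.

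PRF1 encodes perforin, the pore-forming protein. Its signal was 10.6, 11.5 and 11.8 with IL-17A and 9.23, 10.1 and 8.01 in controls, and all 6 arrays were well above background. The lowest IL-17A signal, that of sample 1, was above the highest control signal by a small margin, 10.6 against 10.1. The difference was 0.32 (log2, SE 0.10), a 1.25-fold ratio, below the fold change of 1.5 that the thresholds asked for.

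GZMB encodes granzyme B, the protease that cleaves after aspartate and activates caspases. Averaged over its 10 spots, its signal was 5.18, 4.64 and 4.90 with IL-17A and 5.26, 6.18 and 4.88 in controls. The groups overlapped. Of the 10 spots, 3, 3 and 4 were well above background on the IL-17A arrays and 3, 8 and 4 on the control arrays, so that GZMB counted as detected on control array 2 alone. All 10 spots were positive and significant on each array. The spots of this probe within 1 array ranged from 4.64 to 9.36 on control array 2 and from 2.33 to 10.2 on control array 3, which shows the spread that a single dim spot can have.

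**Figure D2:**
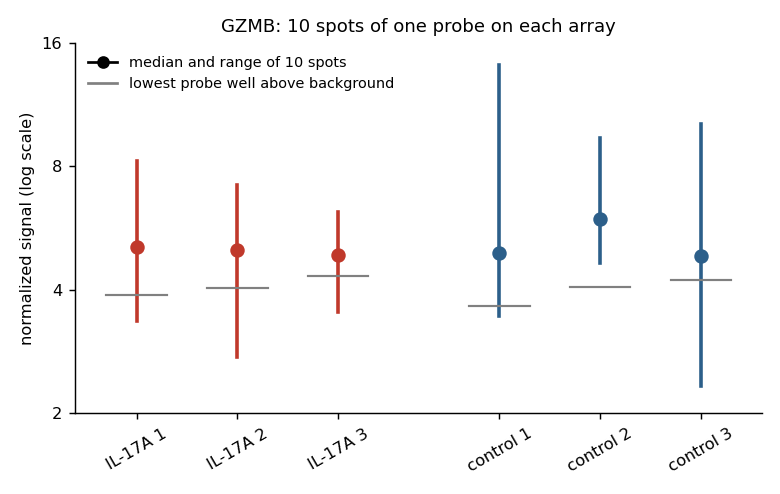
Normalized signal (log scale) of GZMB on each array, with the median (point) and the range (line) of its 10 spots for IL-17A (red) and control (blue), and the lowest signal of a well-above-background probe on that array (grey). The 6 medians lie between 4.82 and 5.94, and the range of the spots within an array is wider than the distance between the groups.

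GZMH and GZMM complete the granzymes. GZMH, the neighbour of GZMB with chymotrypsin-like activity, read 12.1, 9.74 and 10.5 with IL-17A and 10.8, 13.2 and 13.4 in controls. The groups overlapped, with a log2 difference of -0.21 (SE 0.12), which was -0.04 with scan as a block. GZMM, which cleaves after methionine and leucine, read 47.4, 61.2 and 56.1 with IL-17A and 70.1, 56.5 and 46.9 in controls. Its groups overlapped fully, with a log2 difference of -0.06 (SE 0.17), and the sign of this difference was positive under 2 of 18 alternatives.

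Among the granule proteins that are not granzymes, GNLY, which encodes granulysin, read 14.1, 12.3 and 14.9 with IL-17A and 11.9, 12.2 and 14.4 in controls. The groups overlapped, with a log2 difference of 0.10 (SE 0.10). NKG7, a membrane protein of cytotoxic granules, read 9.92, 14.3 and 10.3 with IL-17A and 10.4, 12.3 and 9.72 in controls. Its groups overlapped as well, with a log2 difference of 0.07 (SE 0.17) that turned to -0.12 with scan as a block. SRGN, which encodes serglycin and is expressed in many blood cells, read 412, 427 and 422 with IL-17A and 417, 395 and 402 in controls. Its groups overlapped within a narrow range, with a log2 difference of 0.05 (SE 0.04). CTSW, a cathepsin of T and NK cells, read 1.09, 2.75 and 2.62 with IL-17A and 1.09, 1.08 and 1.06 in controls. It was well above background on no array, so no fold is given; the software called it positive and significant on IL-17A arrays 2 and 3 alone.

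Because GZMK was well above background on the IL-17A arrays alone, the genes with the same pattern were compared with it. The pattern was found for 33 named genes, GZMK among them, and the Pearson r of the other 32 with GZMK over the 6 arrays ran from 0.709 to 0.985, with a median of 0.881. These genes were picked for a difference between the groups, so a high r was built in, and it is given as a description. By the same choice, no control signal of these genes was well above background, so their order by r says nothing further. The most alike was LCP2, an adaptor of T cell receptor signaling, at r = 0.985, with 6.24, 7.39 and 6.58 with IL-17A and 3.43, 3.52 and 4.56 in controls. TBXT, the transcription factor brachyury, followed at 0.984, then MAGEA6, a cancer-testis antigen, at 0.983, IL2RB at 0.979 and GTSF1 at 0.976. GZMA had r = 0.975 with GZMK.

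A list of 164 genes linked to granule proteins or to cells that carry granules was then examined, of which 159 were on the arrays and 130 were tested. Many of them, such as the transcription factors, receptors and myeloid proteases, do not act directly with granzymes or perforin. Of these 130 genes, each taken by its brightest tested probe, 2 were higher and 1 was lower past both thresholds (1.5-fold and an unadjusted limma p under 0.05). Over all 14747 tested genes, the shares were 0.814% higher and 1.08% lower. The 3 genes were IL2RB, NCR2 and NCR1, all receptors of cytotoxic lymphocytes. The median log2 difference of the 130 genes was 0.01, against 0.00 over all tested genes, and 65 of the 130 were higher. At an adjusted limma p under 0.05, 17 genes were called (13 higher and 4 lower), or 13.1%, against 7.89% of all tested genes. That count was 0 with scan as a block and 0 to 9 with 1 array left out, where the share of all genes called fell as well.

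IL2RB encodes the beta chain of the receptors for IL-2 and IL-15, which drives granzyme and perforin expression in T and NK cells. Its signal was 8.55, 11.4 and 9.50 with IL-17A and 1.32, 1.83 and 1.58 in controls. The groups did not overlap and the control arrays were not well above background. Against the lowest signal well above background on each control array, IL2RB with IL-17A was 2.46-fold higher in this normalization. Like GZMK it entered the test through the IL-17A arrays alone and so had to differ. Its p rests on control signals that were not well above background and is not given. Its place among the 3 and the 17 genes is therefore no independent evidence. The other chains of that receptor were measured too. IL2RA was 0.39 higher (log2, SE 0.06, limma, adjusted p = 0.0324), and IL2RG had a log2 difference of -0.08 (SE 0.07) and did not pass.

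NCR2 encodes NKp44, an activating receptor of stimulated NK cells, and read 6.10, 11.2 and 7.21 with IL-17A and 4.29, 3.63 and 3.11 in controls. It was well above background on 3 IL-17A arrays and 1 control array, and the difference was 1.11 (log2, SE 0.25, limma, adjusted p = 0.0536). NCR1 encodes NKp46, an activating receptor of resting NK cells, and read 15.3, 27.6 and 23.8 with IL-17A and 40.7, 35.2 and 28.0 in controls. The difference was -0.67 (log2, SE 0.26, limma, adjusted p = 0.146), with the highest IL-17A value just below the lowest control value. Neither passed the adjusted threshold, and each lost its call under several alternatives. NCR2 lost it with scan as a block; NCR1 lost it without any of 4 single arrays (IL-17A 1, IL-17A 3, control 1 or control 2).

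By role, none of the 14 tested genes of granzyme processing and granule storage passed both thresholds. CALR, the calreticulin found in granules, had a log2 difference of -0.14, RAB7A one of 0.25 and LAMP1 one of -0.09. None of 24 genes of granule exocytosis passed, with SYTL1 at 0.25, VAMP8 at 0.03 and ARPC1B at -0.17. The lowest value of that list, named after it was seen, was that of ADGRG1, an adhesion receptor of cytotoxic lymphocytes, at -0.65 (log2, SE 0.31, limma, adjusted p = 0.211), which did not pass here but was called with a variance trend and without IL-17A replicate 1. None of 7 tested protease inhibitors passed, with CSTB at -0.14, CSTA at -0.12 and SERPINB9, the inhibitor of granzyme B, at 0.02. None of 28 granzyme substrates and death effectors passed, with TUBA1B at -0.04, HMGB2 at 0.06 and SET at 0.08. At an unadjusted limma p under 0.05 alone, whatever the fold, these lists had 4, 10, 1 and 7 genes, against 31.7% of all tested genes.

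None of 23 tested transcription factors of cytotoxic lymphocytes passed both thresholds by its brightest probe, with LEF1 at 0.17, MYB at 0.09 and BACH2 at -0.01 (log2). A dimmer probe of TCF7 did, with 0.67 (log2, SE 0.15, limma, adjusted p = 0.0516). Of the 43 receptors and ligands, 30 were tested, and HCST at -0.03 and KLRG1 at 0.13 are examples that did not pass. None of 4 tested granule proteases of myeloid and mast cells passed, with CFD at 0.04, PRTN3 at -0.18 and CTSG, a neighbour of GZMH in the genome, at -0.37. At an unadjusted limma p under 0.05 alone, the transcription factors had 13 genes, the receptors and ligands 17, and the myeloid and mast cell list 1, against the same 31.7%.

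The 17 genes at an adjusted limma p under 0.05 were named after their values were seen. Those higher included RUNX3 (0.17, SE 0.04), ETS1 (0.33, SE 0.07), PRDM1, which encodes BLIMP-1 (0.39, SE 0.06), STAT5A (0.22, SE 0.04) and BHLHE40 (0.37, SE 0.07) among the transcription factors, all on the log2 scale. CBFB, the partner of the RUNX proteins, had a log2 difference of -0.21 (limma, adjusted p = 0.0627) and did not pass. Among the receptors, KLRC4 (0.40), KLRK1 (0.26), SLAMF6 (0.26), TIGIT (0.48), IL2RA and IL2RB were higher, and the signaling adaptors TYROBP (-0.34) and FCER1G (-0.52) were lower. The others were CTSH (0.28), a protease that can process granzyme precursors, GSDMB (0.33), a pore-forming target of granzyme A, KLF2 (-0.28) and NME1 (-0.20), a nuclease released by granzyme A. All of these but IL2RB were under 1.5-fold.

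**Figure D3:**
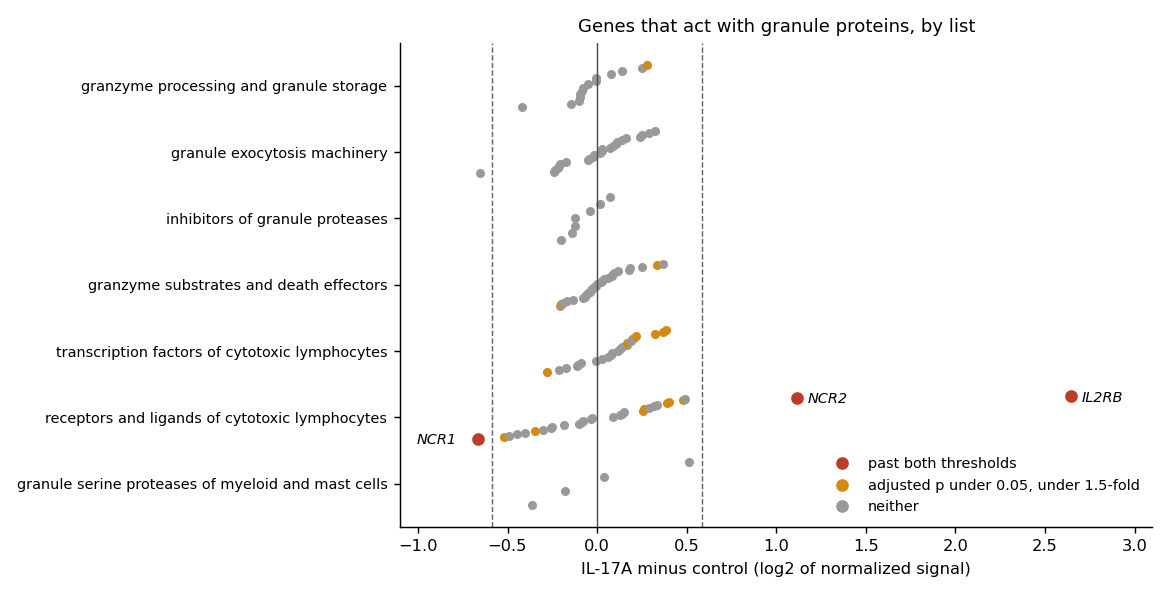
Difference between IL-17A and control (log2 of normalized signal, 3 arrays each) of the 130 tested genes linked to granule proteins or to cells that carry granules, 1 point per gene, in 7 lists. Dashed lines mark a fold change of 1.5; IL2RB, NCR2 and NCR1 passed both thresholds (red), orange points had an adjusted p under 0.05 with a smaller fold, and the grey points passed neither, ADGRG1 at -0.65 among them; for IL2RB the fitted value is plotted, since its control level has only an upper limit.

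The labelled cell type and other possible sources of these transcripts were checked with marker lists. All 21 B cell markers, among them CD79A, PAX5 and MS4A1, were detected on all 6 arrays, with a summed signal of 94148 to 96764 with IL-17A and 90793 to 92917 in controls. Of 20 T cell markers, 14 were detected on all 6 arrays, among them CD3D, CD3E, CD3G, CD8A and LCK, while CD5, TRAT1, THEMIS and UBASH3A were detected on none. Their summed signal was 4810 to 5026 with IL-17A and 4875 to 5342 in controls, so the sums overlapped. Each sum rests mostly on its brightest markers, here SIT1, LCK and CD4, and can hide differences of single markers. Without overlap between the groups, CD4 (-0.31), CD8A (-0.51), CD3E (-0.45) and CD28 were lower, and LAT (0.16) and CD2 (0.52) were higher (log2). The spots of CD3E and CD2 were dim, with a median pixel of 21.5 to 28 and 24 to 27.5 over the 6 arrays. Of all tested probes, 20.5% had every IL-17A array above every control array, so a lack of overlap alone says little. The share in the lower direction was not counted. Of 16 NK cell markers on the arrays, 4 were detected on all 6 (KLRK1, KLRC1, NCR1 and NCR3), and NCAM1, KLRD1, KLRF1, FCGR3A, EOMES, CD160, XCL1 and SH2D1B on none, with overlapping sums of 235 to 260 and 222 to 247. KLRK1 weighs most in this sum. Without overlap between the groups, KLRK1 (0.26) and NCR3 (0.33) were higher and NCR1 was lower (log2). Of 11 monocyte or macrophage markers 4 were detected on all 6 arrays, with sums of 263 to 292 with IL-17A and 313 to 348 in controls, and of 11 neutrophil or mast cell markers 4, with sums of 98.7 to 118 and 107 to 126.

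No marker of any list was detected on the 3 IL-17A arrays and 0 control arrays, or the reverse, as GZMK and GZMA were. Past both thresholds, CD28 among the T cell markers was lower by 0.71 (log2, limma, adjusted p = 0.0324), and NCR1 among the NK cell markers was lower as given above. The B cell sums, higher with IL-17A, and the monocyte sums, lower with IL-17A, did not overlap between the groups, and their part in the granule gene values was not tested. Transcripts of T cell markers were present in both groups of this B cell line, and whether they and the granule gene signals came from SU-DHL-2 cells or from other cells was not tested. In RNA from whole cultures, a few cells with much of a transcript and many cells with little of it cannot be told apart.

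The differences of the dim genes varied with the processing. For GZMK, the log2 difference was 1.01 in the normalized table of the authors, in which dim values share a common lower end, 1.24 when each dim value was lifted to its array's detection limit, and 0.15 with normexp background correction, which adds an offset of 50. For GZMA the values were 0.67 in the authors' table, 0.80 with dim values lifted and 0.05 with normexp. The IL-17A mean was the higher in each of these settings, and the calls of both genes were lost with normexp. Normexp also brought PRF1 to 0.04 and GZMH to -0.01.

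**Figure D4:**
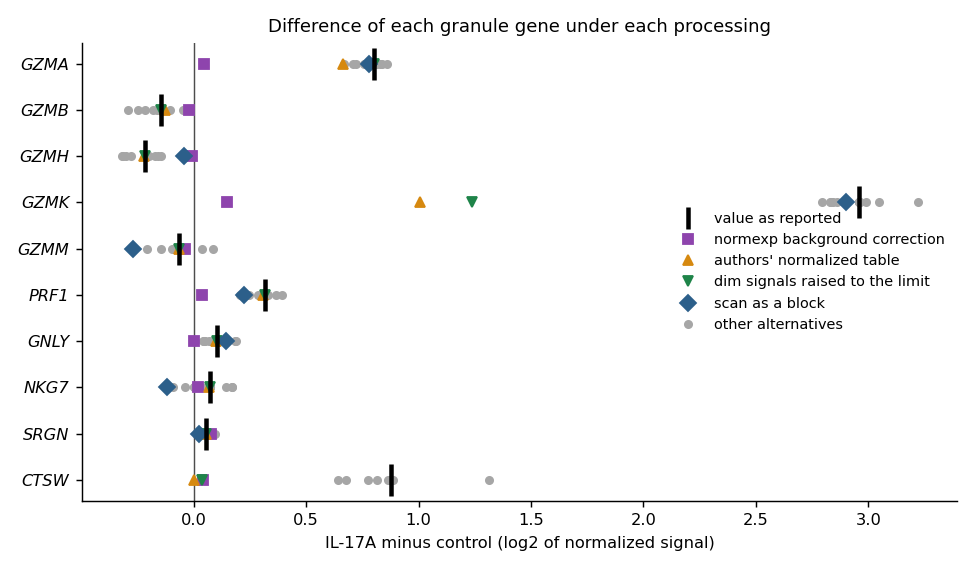
Difference between IL-17A and control (log2 of normalized signal) of each granule gene as reported (black bar) and under each alternative processing, with 4 alternatives marked by shape and colour and the others in grey. GZMK runs from 0.15 to 3.22 and GZMA from 0.05 to 0.86, all above 0, while GZMM and NKG7 lie on both sides of 0. Values of GZMK, GZMA, CTSW and GZMB rest on signals near background and are not measured folds.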

How the data were processed

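Per the labels, the arrays were scanned and read with Agilent Feature Extraction 11.0.1.1. The deposited files of the authors give for each spot a background-subtracted intensity on a linear scale, spot and local background brightness, and flags of 0 or 1. A further table by the authors holds log2 values that they had quantile normalized; it was an alternative, and its lowest log2 value was 2.32 to 2.33 on every array.

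Control spots and 61 non-uniform spot values were left out. The 43118 spots (34127 probes) were quantile normalized, signals under 1 were set to 1, and spots of a probe were averaged in log2. Detected probes numbered 23570 to 23718 on the IL-17A arrays and 23729 to 24077 on the control arrays. What this difference means for the detection patterns was not tested. On all arrays 0 spots were saturated, and the number of arrays limits the precision. Probes were named through RefSeq accessions (25771 probes). IL-17A and control were compared with limma 3.58.1 in R 4.3.3, two-sided, without covariates, with Benjamini-Hochberg adjustment over 23945 probes. The procedure was tested on simulated data.

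The genes, lists and motifs were chosen with earlier results of these data known. Named are the 10 granule genes, listed genes past both thresholds with up to 3 of the brightest others per list, the 3 nearest genome neighbours on each side, and the 5 genes most like GZMK. Alternatives covered scaling, background correction, filters, the variance model, the methods' t-test, blocks, probes and each array left out. Replicate numbers did not pair the samples (correlations of deviations -0.087, -0.002 and -0.046), so no block was used. Protein and probe sequences were not used here.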

Additional observations from a re-analysis of the deposited data

How the results depend on the processing

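Of 176 values of the 10 granule genes under up to 18 alternatives, 162 moved by less than the spread between replicates, 14 moved by more, and 0 called values changed sign. The variance trend, the methods' t-test, the replicate block and the detection filters cannot change a difference. Their values are among the 162 by construction, so that count is no measure of stability. The 2 granule genes past both thresholds, GZMA and GZMK, became 0 with normexp background correction and 0 with probes detected on all 6 arrays, a filter that by construction leaves both out (6 granule genes tested). Both genes were chosen on this comparison, so their calls elsewhere are no sign of stability. Beside the values of GZMK, GZMA, PRF1 and GZMH given above, SRGN moved to 0.09 (log2) without scaling, and GZMB and CTSW, both near background, moved under some alternatives and are given no fold. The count of 3 pathway genes past both thresholds became 0 with normexp, 1 (NCR1) with probes detected on all 6 arrays and 2 with the replicate block (IL2RB and NCR2), and ran from 2 to 5 with 1 array left out, with 5 without IL-17A replicate 1 and 5 without control replicate 3. The count of 17 pathway genes at an adjusted p under 0.05 became 1 without scaling, 31 with a variance trend, 1 with the replicate block and 0 with scan as a block, and ran from 0 to 9 with 1 array left out (1, 0 and 0 without IL-17A replicates 1, 2 and 3, and 0, 1 and 9 without control replicates 1, 2 and 3), while the share of all genes called ran from 0.00678% to 4.25%. The causes were not tested, except that a left-out array leaves fewer samples. The replicate block changed the call of NCR1 and of 0 granule genes.

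The granule genes other than SRGN and GZMM gave signals close to background, where a single spot has the spread given for repeated probes. No second probe of any granule gene was on the arrays. Only 1 IL-17A array shared a scan with the controls, so scan and treatment are largely confounded.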

Other observations

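The granule genes lie close to other genes in the genome, and the 3 nearest protein-coding genes on each side of every granule gene were looked up in the RefSeq annotation. These were 48 genes, of which 37 were tested, and 1 passed both thresholds, against 0.814% of all tested genes in the higher and 1.08% in the lower direction. It was MADCAM1 near GZMM, which was lower with IL-17A by 1.11 (log2, limma, adjusted p = 0.0382), while GZMM itself had overlapping groups. Other neighbours had an adjusted limma p under 0.05 at less than 1.5-fold, and were named after their values were seen. They were EFEMP2 next to CTSW (0.51), ST3GAL5 (0.28), SGPL1 (-0.23), DDX21 (-0.25) and CCDC85B (-0.26), on the log2 scale. Over all tested genes, 7.89% had such an adjusted p at any fold. Around the adjacent GZMK and GZMA, ESM1 had a log2 difference of -0.40, GPX8 one of -0.13 and SNX18 one of -0.01, none past the thresholds, and CDC20B, MCIDAS and HSPB3 were detected on 0 of 6 arrays. In the cluster of GZMH and GZMB, CTSG had a log2 difference of -0.37 and STXBP6 one of 0.10, and neither passed.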
